A study of Homo sapiens with 12 samples.

Results

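The NRF2 pathway was described here through 10 genes: NFE2L2, KEAP1, MAFG, NQO1, HMOX1, OSGIN1, GCLC, GCLM, TXNRD1 and SRXN1. They were found by their symbol among 98711 listed genes, and 9 of the 10 had a row. The expression of SRXN1 was not analysed here. The members were chosen from the differences between resistant and parental cells in these same samples, so their values and calls are given as a description and no p-value is printed for them.

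RNA sequencing was performed on Huh7 and HepG2, a pair of human liver cancer cell lines that the labels call hepatocellular carcinoma cells, both of WT genotype. In each line, 3 samples of sorafenib-resistant cells were compared with 3 samples of untreated parental cells, which gave 12 samples in 4 groups. Sorafenib is a multikinase inhibitor used against liver cancer. The resistant cells had been given sorafenib at 10 μmol to begin with, as the label writes the unit, and at rising concentrations over 8 months. Neither the labels nor the methods state whether the resistant cells were still in drug at harvest, whether each resistant line is a clone, or whether the replicates are separate cultures, so the spread between replicates may be technical. The question was which transcripts differ between resistant and parental cells.

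NRF2, the protein of NFE2L2, is a transcription factor that switches on genes against oxidants and electrophiles. KEAP1 holds NRF2 and hands it to a ubiquitin ligase for degradation, and modification of KEAP1 by electrophiles lets NRF2 accumulate. NRF2 then binds DNA together with a small MAF protein such as MAFG, at sequences known as antioxidant response elements. In liver the pathway is known for protection against drugs and toxicants. Because NRF2 is controlled mainly through its stability, the level of its transcript is not the level of the protein.

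The values are FPKM, fragments scaled to exon length and to the size of the library, a level per gene length. The samples held 12290120 to 19286010 reads in these tables, and the members drew between 205 and 45181 reads in a sample. All 10 liver cell markers checked, albumin among them, reached at least 1 FPKM in every sample. The 7 markers of other cells that were listed summed to 2.76 to 3.96 FPKM in Huh7 and 15.9 to 26.3 FPKM in HepG2. Most of the HepG2 sum was ACTA2, at 13.4 to 21.6 FPKM in HepG2 and 0.09 to 0.64 FPKM in Huh7. Pairwise correlations between replicates over genes, on the log2 scale, ranged from 0.981 to 0.991. In bulk samples, fewer cells expressing a gene and less RNA per cell cannot be told apart.

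A pair of member promoters, of GCLM and TXNRD1, is shown first as an example with the letters of the antioxidant response element close to the start site. The pair was picked with its values known: both genes were lower in resistant than in parental HepG2, but TXNRD1 was higher in resistant Huh7. Nothing about direction is read from the pair. The letters searched were TGACNNNGC on both strands, in RefSeq promoters (GRCh38.p14) of 300 bases, from 250 before to 50 after the start site. The 150 bases upstream of the RefSeq start are printed 5′ to 3′ on the strand of the gene, with capitals marking a match. The GCLM stretch lies at chr1:93909431-93909580 on the minus strand, and the TXNRD1 stretch at chr12:104215629-104215778 on the plus strand.
GCLM: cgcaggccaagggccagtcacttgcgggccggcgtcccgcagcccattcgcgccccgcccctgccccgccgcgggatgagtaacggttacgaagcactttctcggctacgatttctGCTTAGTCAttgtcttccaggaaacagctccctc
TXNRD1: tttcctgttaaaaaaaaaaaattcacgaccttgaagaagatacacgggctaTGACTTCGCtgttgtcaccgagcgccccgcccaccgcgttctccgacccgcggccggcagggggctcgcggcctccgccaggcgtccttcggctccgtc

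In GCLM the match read TGACTAAGC on the opposite strand, from 34 to 26 bases before the start. In TXNRD1 it read TGACTTCGC on the strand of the gene, from 99 to 91 bases before the start, and a further match, TGACGGAGC on the opposite strand, ran across the start itself. KEAP1 held 2 matches in its other listed promoter. They were TGACACGGC, from 54 to 46 bases before the start, and TGACTAAGC, the same letters as GCLM, from 31 to 23. KEAP1 was higher, not lower, in resistant HepG2, and a link between matches and direction was not tested. In all, 12 promoters of 9 members were in the table and 4 of them held a match, in 3 genes. These 9 members include SRXN1, whose promoter held no match, and are not the 9 members with a row of expression values. HMOX1 had no entry. The letters occurred in 13.3% of all 35116 promoters and in 20 of the 79 promoters of other NRF2 pathway genes. A related AP-1 motif, TGANTCA, which 7.71% of all promoters held, was present in 1 member, OSGIN1, without overlap with the first motif. No TGACNNNGC match fell within the NQO1 window. A match is a description of letters, and a missing one says only that these letters are not in the window.

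**Figure D1:**
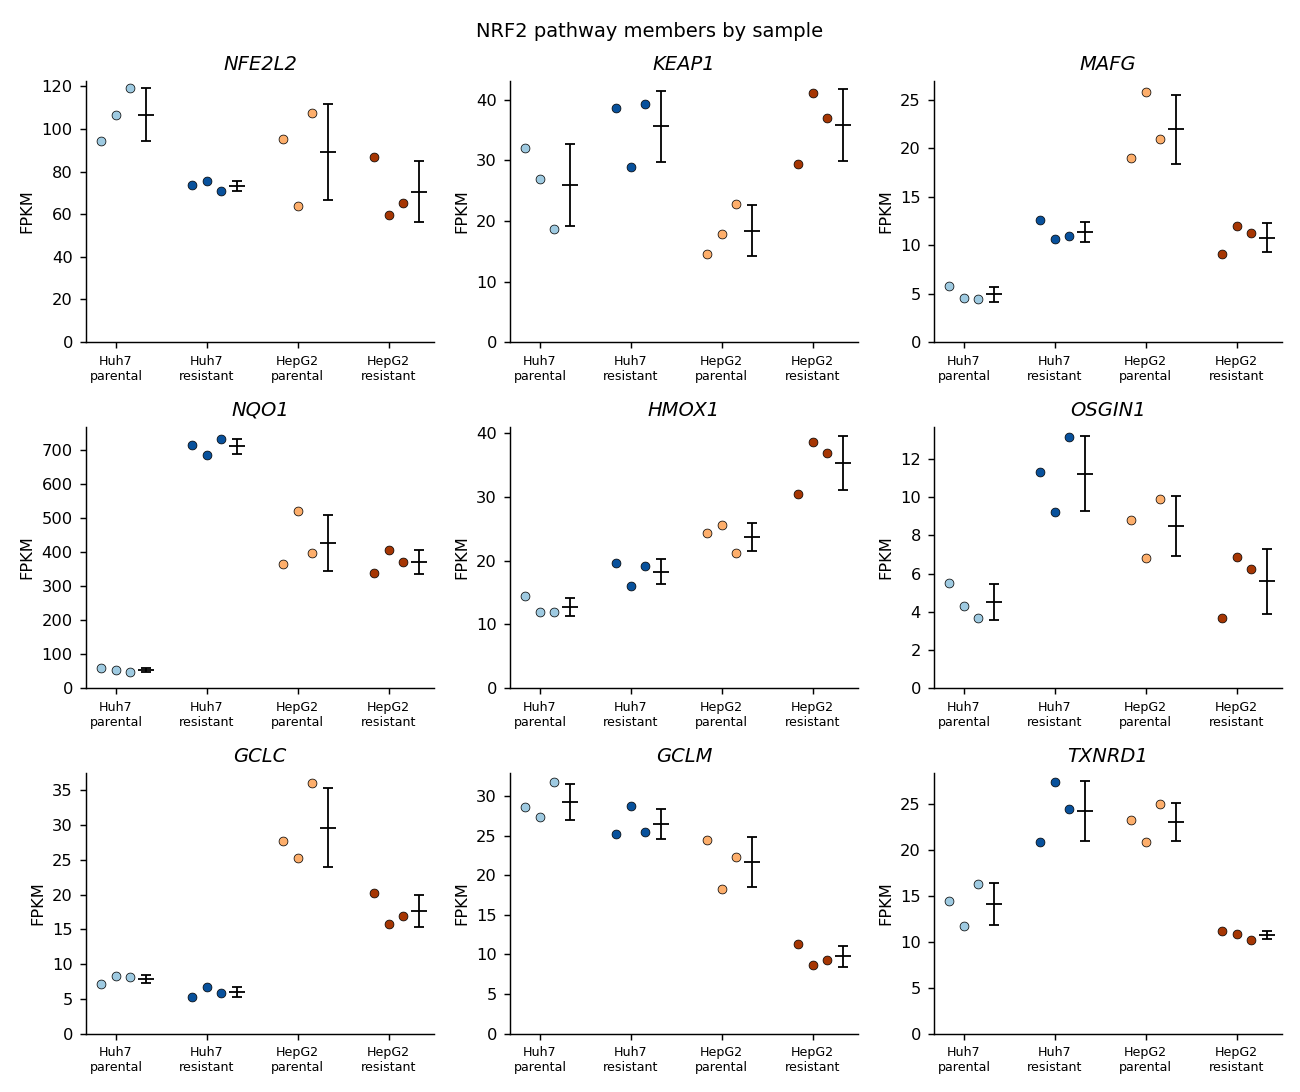
FPKM of the 9 members in every sample, 1 panel a gene with its own linear axis from 0. Points are samples, with the mean and SD beside each group of 3. The 3 resistant Huh7 samples of NQO1 sit at 685 to 730.3 FPKM and the parental ones at 47.2 to 58.1 FPKM, while the HepG2 groups overlap.

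NQO1 reduces quinones to hydroquinones and is a widely used readout of NRF2 activity. The gene lies at chr16:69706996-69726951 on the minus strand (GRCh38). In resistant Huh7 it stood at 715, 685 and 730.3 FPKM, and in parental Huh7 at 58.1, 52.9 and 47.2 FPKM. Every resistant sample was far above every parental one, with a 13.5-fold higher mean. The log2 change of FPKM + 1 was 3.73 (SE 0.12), which ranked 3 from the top among the 12554 genes tested in Huh7. In HepG2 the picture was different: NQO1 stood at 337, 406 and 369 FPKM in resistant cells and at 366, 520.5 and 395 FPKM in parental cells. These groups overlapped, and the log2 change was -0.19 (SE 0.18). Parental HepG2 held 8.10 times the level of parental Huh7, and its 3 samples all lay above the 3 of Huh7. The order of the mean levels was resistant Huh7 (710.2 FPKM), parental HepG2 (427 FPKM), resistant HepG2 (371 FPKM) and parental Huh7 (52.8 FPKM), of which the middle pair overlapped.

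NFE2L2, the gene of NRF2 itself (chr2:177227595-177392697, minus strand), was at 73.8, 75.6 and 70.7 FPKM in resistant Huh7 and at 94.4, 106 and 119 FPKM in parental Huh7. The resistant samples all lay below the parental ones, with a log2 change of -0.53 (SE 0.12). In HepG2 it was at 86.6, 59.5 and 65.3 FPKM in resistant cells against 95.5, 63.9 and 108 FPKM in parental cells. The groups overlapped, since parental replicate 2 lay below resistant replicates 1 and 3, and the log2 change was -0.32 (SE 0.23). The NFE2L2 transcript was therefore not higher in the resistant group of either line, including Huh7, where NQO1 was highest.

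KEAP1 (chr19:10486120-10503741, minus strand), the inhibitor of NRF2, was at 38.7, 28.9 and 39.3 FPKM in resistant Huh7 and at 32.0, 27.0 and 18.6 FPKM in parental Huh7, and these groups overlapped. The log2 change was 0.47 (SE 0.20). In HepG2, KEAP1 was at 29.4, 41.1 and 37.0 FPKM in resistant cells and at 14.5, 17.8 and 22.8 FPKM in parental cells. The resistant samples all lay above the parental ones, with a log2 change of 0.94 (SE 0.20), just under the fold threshold of 1. The ratio of NFE2L2 to KEAP1 averaged 4.43 ± 1.78 (SD, n = 3) for parental Huh7 beside 2.11 ± 0.44 (SD, n = 3) for the resistant samples. In HepG2 the parental average of 4.97 ± 1.52 stood beside 2.05 ± 0.79 for resistant cells (SD, n = 3 each). In both lines every resistant sample had a lower ratio than every parental one. Taken as the difference of the log2 changes of the 2 genes, the ratio was 1.99-fold lower in resistant Huh7 and 2.38-fold lower in resistant HepG2, and with the GC trend of each library removed 1.28-fold and 2.23-fold lower.

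MAFG (chr17:81918270-81927714, minus strand), the small MAF partner, differed in opposite directions in the 2 lines. In Huh7 it stood at 12.6, 10.7 and 10.98 FPKM in resistant and at 5.80, 4.54 and 4.45 FPKM in parental cells, a log2 change of 1.07 (SE 0.13). In HepG2 it stood at 9.13, 11.99 and 11.3 FPKM in resistant and at 19.0, 25.9 and 21.0 FPKM in parental cells, a log2 change of -0.96 (SE 0.17). Resistant and parental samples were separate in both lines. Parental HepG2 held 4.46 times the level of parental Huh7, whereas the resistant groups of the 2 lines overlapped.

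HMOX1 (chr22:35380361-35394214, plus strand) breaks heme down to biliverdin, iron and carbon monoxide, and OSGIN1 (chr16:83948282-83966332, plus strand) is an oxidative stress-induced growth inhibitor. HMOX1 was at 19.6, 16.1 and 19.1 FPKM in resistant and at 14.4, 11.97 and 11.9 FPKM in parental Huh7, and at 30.5, 38.6 and 36.9 FPKM in resistant and 24.4, 25.5 and 21.3 FPKM in parental HepG2. It was the only member whose resistant samples all lay above the parental ones in both lines. Its log2 changes were 0.49 (SE 0.12) in Huh7 and 0.55 (SE 0.15) in HepG2, both under the fold threshold. OSGIN1 was at 11.3, 9.20 and 13.1 FPKM in resistant Huh7 and at 5.52, 4.29 and 3.67 FPKM in parental Huh7, a log2 change of 1.16 (SE 0.16). In HepG2 it was at 3.67, 6.88 and 6.21 FPKM in resistant and 8.78, 6.80 and 9.89 FPKM in parental cells. Those groups overlapped, with a log2 change of -0.55 (SE 0.23).

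GCLC and GCLM encode the catalytic and the modifier subunit of glutamate-cysteine ligase, the rate-limiting enzyme of glutathione synthesis. GCLC (chr6:53497341-53616970, minus strand) was at 5.23, 6.67 and 5.91 FPKM in resistant and at 7.14, 8.27 and 8.10 FPKM in parental Huh7. In HepG2 it was at 20.3, 15.7 and 16.9 FPKM in resistant and at 27.7, 25.2 and 36.0 FPKM in parental cells. Resistant samples lay below parental ones in both lines, with log2 changes of -0.35 (SE 0.12) and -0.71 (SE 0.17). GCLM (chr1:93885205-93909456, minus strand) was at 25.2, 28.7 and 25.5 FPKM in resistant and at 28.6, 27.3 and 31.8 FPKM in parental Huh7, with overlap and a log2 change of -0.14 (SE 0.11). In HepG2 it was at 11.3, 8.73 and 9.28 FPKM in resistant and at 24.5, 18.3 and 22.2 FPKM in parental cells, a log2 change of -1.07 (SE 0.16) without overlap. GCLC was far below GCLM in Huh7 and above it in HepG2. The ratio of GCLC to GCLM averaged 0.269 ± 0.029 for parental and 0.224 ± 0.015 for resistant Huh7 (SD, n = 3 each), against 1.37 ± 0.24 for parental and 1.81 ± 0.02 for resistant HepG2 (SD, n = 3 each).

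**Figure D2:**
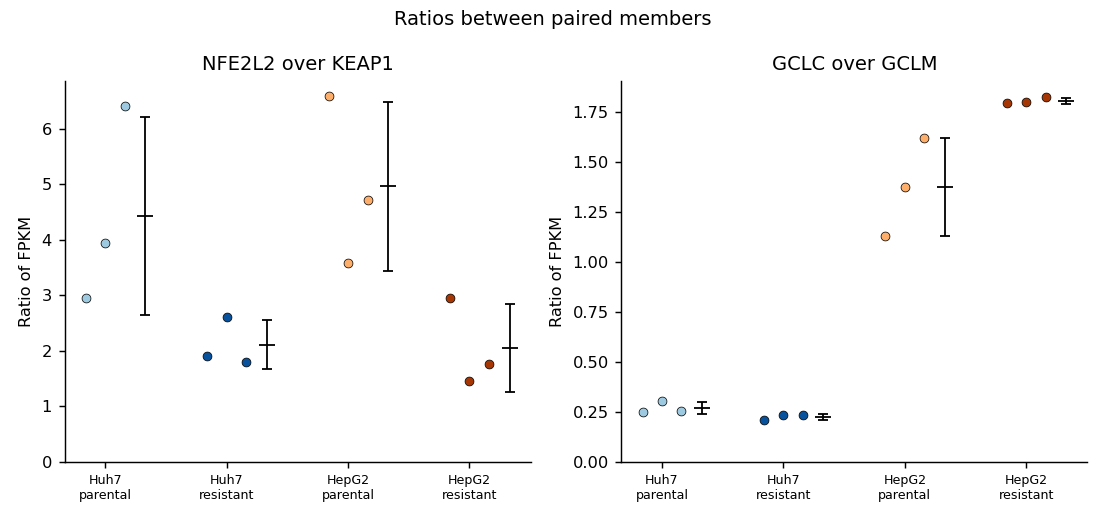
Ratio of FPKM of NFE2L2 to KEAP1 and of GCLC to GCLM in every sample on linear axes from 0, with the mean and SD beside each group of 3. The first ratio is lower in the resistant groups of both lines, and the other is below 1 in every Huh7 sample and above 1 in every HepG2 sample.

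TXNRD1 (chr12:104215779-104350305, plus strand), the cytosolic thioredoxin reductase and a selenoprotein, also lay on opposite sides of its parental level in the 2 lines. It was at 20.9, 27.5 and 24.5 FPKM in resistant and at 14.4, 11.7 and 16.3 FPKM in parental Huh7, a log2 change of 0.74 (SE 0.15). In HepG2 it was at 11.2, 10.9 and 10.2 FPKM in resistant and at 23.2, 20.9 and 25.1 FPKM in parental cells, a log2 change of -1.03 (SE 0.13). No resistant value fell within the parental range of its line.

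**Figure D3:**
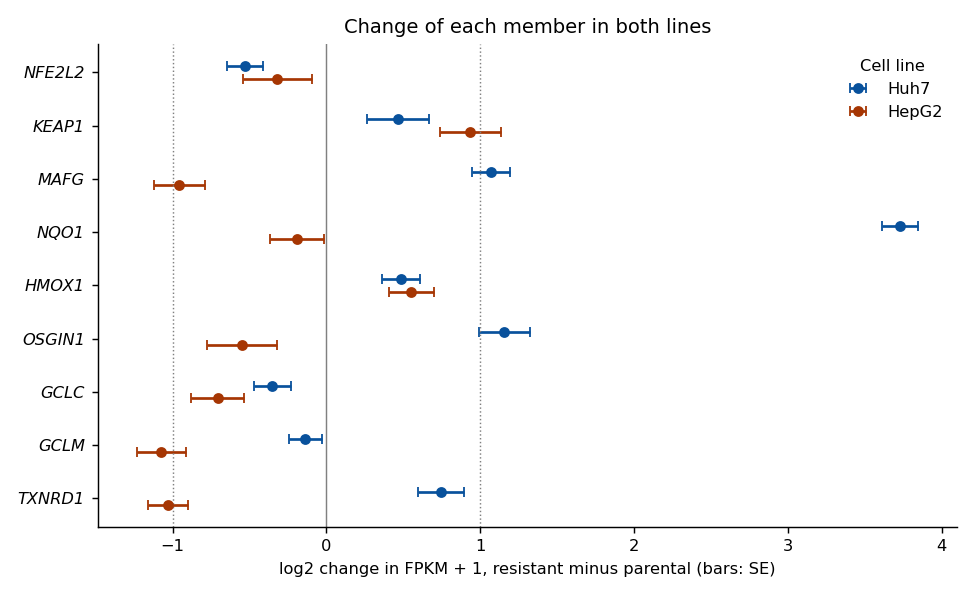
Log2 change of FPKM + 1, resistant minus parental, for each member in Huh7 (blue) and HepG2 (brown), with bars of 1 SE and dotted lines at the fold threshold of 1. NQO1 in Huh7 lies at 3.73, and MAFG and TXNRD1 lie on opposite sides of 0 in the 2 lines.

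A gene was called when limma gave a Benjamini-Hochberg adjusted p under 0.05 over all genes tested and an absolute log2 change above 1. In Huh7, 3 of the 9 members were called higher in resistant cells (NQO1, MAFG and OSGIN1) and 0 lower, where 8.59% of all 12554 genes tested were called higher and 14% lower. The resistant samples lay above the parental ones without overlap for 5 members and below for 2, against 35.2% and 39.2% of all genes. In HepG2, 2 members were called lower (GCLM and TXNRD1) and 0 higher, where 2.98% of all 11762 genes were called lower and 3.29% higher. There, 2 members lay above without overlap and 4 below, against 24.9% and 15.5% of all genes. Since the members were chosen on these contrasts, nothing is read from these counts. By adjusted p alone in the same limma fits, 7 members passed in Huh7 and 6 in HepG2, where 70.1% and 20% of all genes passed. By unadjusted p under 0.05, 8 members passed in Huh7 and 7 in HepG2, where 72.8% and 36.6% of all genes passed. Limma-voom on reads called 3 members higher and 0 lower in Huh7, where it called 13% of all genes higher and 21.2% lower. In HepG2 it called 0 members higher and 3 lower, where it called 5.49% of all genes higher and 4.35% lower.

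The change in Huh7 followed the base composition of the genes. Over the 12545 genes with a known GC content, the Spearman correlation of the log2 change with GC content was 0.62 in Huh7 and 0.04 over 11756 genes in HepG2, as a description over genes that share the same libraries. The members ranged from 37.3% GC in GCLM to 63.4% in OSGIN1. With the GC trend of each library removed, NQO1 stayed at 3.80 in Huh7 and TXNRD1 at 0.94, whereas MAFG moved to 0.54 and OSGIN1 to 0.67, under the fold threshold. KEAP1 and HMOX1 moved to -0.07 and -0.05, and GCLM to 0.70, so the directions of these 3 in Huh7 rested on the treatment of GC content. NFE2L2 and GCLC kept their direction in Huh7, NFE2L2 at -0.42 and GCLC at -0.11, where GCLC had been at -0.35. GCLM in Huh7 was also at 0.04 under upper-quartile scaling. What lies behind the trend was not tested. The members' directions in HepG2 were the same under every alternative run.

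The other genes of the pathway were taken from 8 role lists with 71 genes, of which 70 had a row. These lists were also chosen with earlier results of these data known, so their counts and p-values are a description. In Huh7, 59 were tested, and 18 rose and 5 fell in resistant cells, where 8.59% of all genes rose and 14% fell. The median log2 change of the 59 was 0.80, against -0.04 over all genes tested, and their median GC content was 50.8%, against 46.7%. In HepG2, 61 were tested, and 1 rose and 8 fell, where 3.29% of all genes rose and 2.98% fell. The median log2 change of the 61 was -0.12, against 0.12 over all genes. Resistant samples lay above parental ones without overlap for 41 of the 59 in Huh7 and below for 10, against 35.2% and 39.2% of all genes. In HepG2 these counts were 11 and 21 of the 61, against 24.9% and 15.5% of all genes. Of the called genes, AKR1B10 and BACH2 in Huh7 and NFE2 in HepG2 passed the filter only through the group where they were high. With 1 FPKM asked in all 6 samples of the line, 17 rose and 4 fell in Huh7, and 0 rose and 7 fell in HepG2. Of all genes under that filter, 832 rose and 1118 fell of 10079 in Huh7, and 291 rose and 267 fell of 10064 in HepG2. With the GC trend removed, 15 rose and 2 fell in Huh7, with a median of 0.51, and 1 rose and 9 fell in HepG2. Of all genes, 703 rose and 787 fell of 12554 in Huh7 under that setting, and 279 rose and 444 fell of 11762 in HepG2. GSK3B, GSTA4 and GSTM3 were among the 5 that fell in Huh7 (log2 changes -1.03, -1.08 and -1.32), and DPP3, GSTP1, PGD and PTGR1 among the 18 that rose, 7 genes named after their values were seen. Under upper-quartile scaling 27 rose and 2 fell in Huh7, where 1608 rose and 1272 fell of all 12475 genes. Under median-ratio scaling 24 rose and 3 fell, where 1293 rose and 1513 fell of all 12441 genes.

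**Figure D4:**
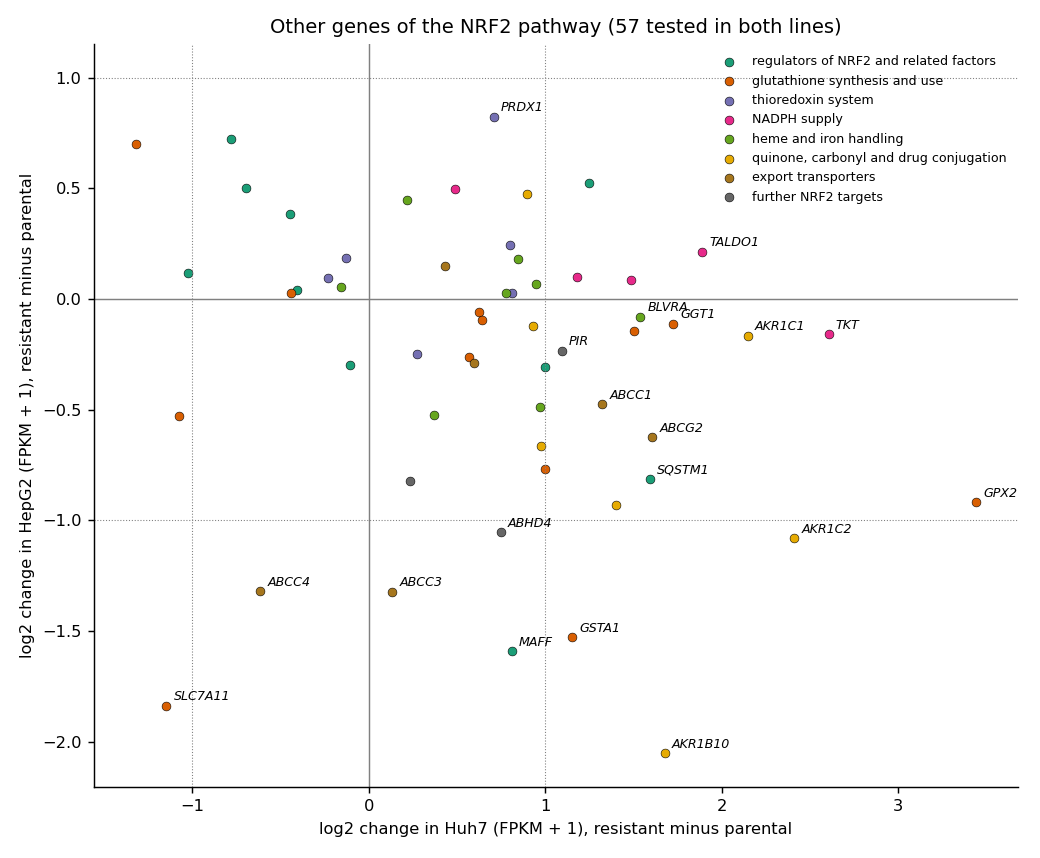
Log2 changes of FPKM + 1 in Huh7 (horizontal) and HepG2 (vertical) for the 57 other pathway genes tested in both lines, coloured by role list, with dotted lines at 1 and -1 and the genes of the text named. GPX2 lies farthest to the right at 3.44, and AKR1B10 lowest at -2.05.

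Among 14 regulators of NRF2 and related factors, 11 were tested in each line, with 2 higher and 2 lower in Huh7 and 1 higher and 1 lower in HepG2. Of all genes tested, 8.59% were called higher and 14% lower in Huh7, and 3.29% and 2.98% in HepG2. SQSTM1, an autophagy receptor that binds KEAP1, rose from 24.8 ± 3.9 to 76.9 ± 12.4 FPKM in Huh7 (SD, n = 3 each, log2 change 1.59, SE 0.16, limma adjusted p = 7.7e-05). In HepG2 SQSTM1 was at 32.5 ± 4.2 FPKM in parental and 18.1 ± 2.4 FPKM in resistant cells (SD, n = 3 each), a log2 change of -0.81 (limma adjusted p = 0.010) that missed the fold threshold. BACH2, a repressor that pairs with small MAF proteins, fell from 2.38 to 0.323 FPKM in Huh7 (log2 change -1.35, limma adjusted p = 2.7e-05) and was too low to be tested in HepG2. BACH2 entered the Huh7 test only through the parental group, since it was under 1 FPKM in every resistant sample. Its p-value is a description. MAFF, another small MAF protein, fell from 5.26 ± 1.35 to 1.04 ± 0.14 FPKM in HepG2 (SD, n = 3 each, log2 change -1.59, SE 0.19, limma adjusted p = 0.0015). NFE2, a relative of NRF2, was the 1 pathway gene that rose in HepG2, from 0.230 to 2.51 FPKM (log2 change 1.49, SE 0.19, limma adjusted p = 0.0019). NFE2 was tested only through the resistant group, its level in the other 3 groups being under 1 FPKM. The p-value of NFE2 is a description.

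Of the 12 genes of glutathione synthesis and use, 4 rose and 3 fell in Huh7, where 8.59% and 14% of all genes did. In HepG2, 2 fell and 0 rose, where 2.98% and 3.29% of all genes did. Limma-voom called the same numbers in HepG2, where it called 4.35% of all genes lower and 5.49% higher. There, 6 of the 12 had an unadjusted p under 0.05, against 36.6% of all genes. GPX2, a glutathione peroxidase best known from the gut, rose from 23.6 ± 3.6 to 266 ± 37 FPKM in Huh7 (SD, n = 3 each, log2 change 3.44, SE 0.15, limma adjusted p = 4.5e-06). In HepG2 GPX2 was at 343 ± 26 FPKM in parental and 182 ± 22 FPKM in resistant cells (SD, n = 3 each), a log2 change of -0.92 (limma adjusted p = 0.0054) under the fold threshold. GGT1, which breaks down extracellular glutathione, rose from 1.67 to 7.88 FPKM in Huh7 (log2 change 1.72, limma adjusted p = 3.3e-05) and had a log2 change of -0.11 in HepG2. SLC7A11, the cystine importer that feeds glutathione synthesis, fell in both lines. It went from 22.7 ± 3.9 to 9.67 ± 1.38 FPKM in Huh7 (SD, n = 3 each, log2 change -1.15, SE 0.16, limma adjusted p = 0.00030) and from 62.2 ± 13.8 to 16.9 ± 5.4 FPKM in HepG2 (SD, n = 3 each, log2 change -1.84, SE 0.24, limma adjusted p = 0.0019). The Huh7 call of SLC7A11 was lost with the GC trend removed and under upper-quartile scaling. GSTA1, a glutathione transferase, rose in Huh7 (log2 change 1.15, limma adjusted p = 0.00024) and fell in HepG2 (-1.53, limma adjusted p = 0.00083).

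In the thioredoxin system, 0 of 6 genes were called by limma in either line. At an unadjusted p under 0.05, 4 passed in Huh7 and 1 in HepG2, where 72.8% and 36.6% of all genes passed. Limma-voom called 1 higher in Huh7 and 0 in HepG2, where it called 13% and 5.49% of all genes higher. PRDX1, a peroxide-reducing enzyme and the most abundant of them, was at 676 ± 36 FPKM in resistant and 413 ± 12 FPKM in parental Huh7 (SD, n = 3 each), and at 543 ± 33 and 307 ± 37 FPKM in HepG2. Its log2 changes of 0.71 and 0.82 were under the fold threshold, with limma adjusted p = 0.00092 and 0.0081.

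Of the 6 genes that supply NADPH, 4 rose and 0 fell in Huh7, where 8.59% and 14% of all genes did. Limma-voom called the same numbers, where it called 13% of all genes higher and 21.2% lower. TKT and TALDO1, both of the non-oxidative pentose phosphate pathway, had the largest changes of this list. TKT rose from 10.2 ± 1.8 to 67.1 ± 9.2 FPKM (SD, n = 3 each, log2 change 2.61, SE 0.15, limma adjusted p = 1.0e-05). TALDO1 rose from 20.1 ± 3.3 to 76.8 ± 9.3 FPKM (SD, n = 3 each, log2 change 1.89, SE 0.14, limma adjusted p = 2.9e-05). In HepG2, TKT was at 49.1 FPKM in resistant and 54.5 FPKM in parental cells. There, 0 of the 5 genes tested were called by limma or limma-voom. Of the 5, 1 had an unadjusted p under 0.05, against 36.6% of all genes. In heme and iron handling, BLVRA, which turns biliverdin into bilirubin, was the 1 of 8 genes that rose in Huh7, from 1.57 ± 0.34 to 6.45 ± 0.46 FPKM (SD, n = 3 each, log2 change 1.54, SE 0.13, limma adjusted p = 3.7e-05). Limma-voom called 3 of these 8 higher in Huh7, where it called 13% of all genes higher. Of the 8, 6 had an unadjusted p under 0.05 in Huh7, against 72.8% of all genes. In HepG2, 0 of these 8 were called by either tool, with 2 at an unadjusted p under 0.05, against 36.6% of all genes.

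Quinone, carbonyl and drug conjugation genes rose in Huh7 for 4 of 7 tested (8.59% of all genes) and fell in HepG2 for 2 of 8 (2.98% of all genes). AKR1B10, an aldo-keto reductase, rose from 0.383 to 3.44 FPKM in Huh7 (log2 change 1.68, SE 0.12, limma adjusted p = 1.9e-05) and fell from 42.0 ± 5.5 to 9.44 ± 1.93 FPKM in HepG2 (SD, n = 3 each, log2 change -2.05, SE 0.18, limma adjusted p = 0.00044). AKR1B10 entered the Huh7 test only through the resistant group, since it was under 1 FPKM in every parental sample. Its p-value in Huh7 is a description. AKR1C2, of the same family, rose from 8.92 to 51.7 FPKM in Huh7 (log2 change 2.41, limma adjusted p = 4.2e-06) and fell from 147 to 69.0 FPKM in HepG2 (-1.08, limma adjusted p = 0.0016). AKR1C1 rose from 43.3 to 195 FPKM in Huh7 (log2 change 2.15, limma adjusted p = 4.5e-06) and was at 309 and 276 FPKM in parental and resistant HepG2 (-0.17, limma adjusted p = 0.44). AKR1C1, AKR1C2 and AKR1C3 are highly similar, as are the GSTA genes, so reads may have been shared between copies and their single values are uncertain.

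Export transporters rose in Huh7 for 2 of 6 genes (8.59% of all genes) and fell in HepG2 for 2 of 6 (2.98% of all genes). ABCG2, a drug efflux pump, rose from 2.83 ± 0.15 to 10.7 ± 1.1 FPKM in Huh7 (SD, n = 3 each, log2 change 1.61, SE 0.11, limma adjusted p = 2.0e-05). ABCC1, which exports glutathione conjugates, rose from 3.09 to 9.21 FPKM (log2 change 1.32, limma adjusted p = 7.2e-05), a call lost with the GC trend removed. ABCC3 and ABCC4, of the same family, fell in HepG2, from 25.97 to 9.70 FPKM and from 5.75 to 1.69 FPKM (both log2 changes -1.32, limma adjusted p = 0.0019 and 0.0016). Of the further NRF2 targets, PIR, which encodes the iron-binding protein pirin, rose from 16.3 to 35.9 FPKM in Huh7 (log2 change 1.09, limma adjusted p = 0.00010), also lost with the GC trend removed. ABHD4, a lipid hydrolase, fell from 22.3 ± 5.8 to 9.99 ± 0.56 FPKM in HepG2 (SD, n = 3 each, log2 change -1.05, limma adjusted p = 0.0091), a call lost without parental replicate 1.

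Between the lines, the change differed by the interaction test of limma in 44 of the 57 other pathway genes tested in both. It was lower in HepG2 than in Huh7 for 38 of them and higher for 6, where 24.1% of all 10688 genes tested were lower and 32.2% higher. The difference was largest for GPX2 (-4.36 on the log2 scale, limma adjusted p = 1.1e-07). SLC7A11, which fell in both lines, had a difference of -0.69 that missed the threshold (limma adjusted p = 0.070), and PRDX1 one of 0.12 (limma adjusted p = 0.58). For the members, described without a p-value, the difference was -3.92 (SE 0.20) for NQO1, -2.03 (SE 0.21) for MAFG, -1.78 (SE 0.19) for TXNRD1, -1.70 (SE 0.30) for OSGIN1 and -0.93 (SE 0.19) for GCLM. For HMOX1 it was 0.07 (SE 0.18), for NFE2L2 0.21 (SE 0.27), for GCLC -0.36 (SE 0.21) and for KEAP1 0.47 (SE 0.30).

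Untreated cells of the 2 lines were also compared. Of 63 other pathway genes tested, 23 were higher and 8 lower in parental HepG2 than in parental Huh7, where 12% of all 13628 genes were higher and 18.4% lower. AKR1B10 was 110-fold higher in parental HepG2 (limma adjusted p = 1.6e-10), AKR1C2 16.5-fold (limma adjusted p = 4.4e-11), ABCC1 15.5-fold (limma adjusted p = 5.5e-10), BLVRA 14.6-fold (limma adjusted p = 9.9e-10) and GPX2 14.5-fold (limma adjusted p = 1.1e-09). In the other direction, ME1, an NADPH-producing malic enzyme, was 125-fold lower (0.352 against 43.9 FPKM, limma adjusted p = 2.4e-11), GSTP1, a glutathione transferase, 122-fold lower (3.37 against 409.8 FPKM, limma adjusted p = 1.1e-10) and BACH2 18.7-fold lower (limma adjusted p = 6.3e-09). AKR1C3 was 206-fold higher in HepG2 (164 against 0.793 FPKM, limma adjusted p = 8.5e-12), and CYP4F11 stood at 6.35 FPKM against 0 to 3 reads in a parental Huh7 sample. ME1, GSTP1, AKR1C3 and CYP4F11 were named here after their values were seen. A gene was tested here if it passed the filter in either line. AKR1C3, CYP4F11, ME1 and BACH2 therefore entered only through the line where they were high, and their p-values are a description. AKR1B10 was also under 1 FPKM in every parental Huh7 sample. Folds against such low levels are uncertain. Of the members, described without a p-value, NQO1, MAFG and GCLC were past both thresholds, all higher in HepG2, with GCLC at 3.78-fold. HMOX1, TXNRD1 and OSGIN1 were 1.86-fold, 1.63-fold and 1.89-fold higher without overlap, GCLM was 1.35-fold lower without overlap, and NFE2L2 and KEAP1 overlapped. The share of all genes without overlap between the parental lines was not counted, so nothing is read from these separations. By adjusted p alone, 9248 of all 13628 genes differed between the parental lines in limma. This comparison and the Huh7 comparison share the parental Huh7 samples, so their values are not independent of each other.

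The genes whose pattern over the 12 samples was most like NQO1 were PLXND1, a semaphorin receptor, CBLC, a ubiquitin ligase, CSF3R, a cytokine receptor, and the pathway genes TKT and GPX2. The measure was the root mean square difference of centred log2 values, which ran from 0.39 to 0.43 for these 5. PLXND1 averaged 31.6 FPKM in resistant and 3.79 FPKM in parental Huh7, and 24.3 and 22.6 FPKM in resistant and parental HepG2. For NFE2L2 the 5 nearest genes were CISD2, NR3C1, SSFA2, PPAT and TANK, at 0.10 to 0.12, a smaller distance for a gene that itself varied little. NR3C1, the glucocorticoid receptor, averaged 7.08 and 10.4 FPKM in resistant and parental Huh7 and 7.01 and 9.31 FPKM in HepG2.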

How the data were processed

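RNA was sequenced from 12 samples of Huh7 and HepG2 cells with a NEBNext Ultra RNA library kit. The labels name an RNeasy kit for the RNA and the methods TRIzol. The submitters' processing notes name GRCh38 and bcl2fastq. The aligner and counter are not given in the sources used here.

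The authors deposited 1 table per sample with a single value column, taken here as FPKM although the tables do not name the unit. In 6896 single-exon genes, value times exon length fell within 0.05 of whole multiples of 1 step per sample for 99.5% to 99.6% of values up to 2000 reads, which gave the read numbers. Gene lengths and GC content came from GENCODE 29. Of 98711 genes, the 27249 with an Ensembl identifier were tested.

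Groups were taken from the sample titles. Within a line, a gene needed 1 FPKM or more in 3 or more of the 6 samples. The test was limma 3.58.1 in R 4.3.3 (lmFit, eBayes with trend) on log2(FPKM + 1), so changes of low genes are understated. A gene was called at a Benjamini-Hochberg adjusted p under 0.05 and an absolute log2 change above 1, the thresholds of the study. The interaction of line and resistance used all 12 samples and adjusted p alone, and the parental lines were compared in a fit of all 12 samples. The interaction took genes that passed the filter in both lines, and the parental comparison took genes that passed in either line. On simulated data limma recovered 200 of 200 changed genes in each line, with 6 other genes called in Huh7 and 3 in HepG2. Recovery near the fold threshold, in low genes or with a GC trend was not tested. Tables and figures were made with pandas 2.3.3 and matplotlib 3.10.9 in Python 3.11.15.

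The members and gene lists were chosen with earlier results of these data known. The members, which the fits across all genes include, are therefore given with their calls as a description and without p-values. Counts and p-values of the other pathway genes are likewise a description. The genes named were all members, pathway genes called in both lines, the 2 largest called changes of each role list in each line, the most abundant gene of a list without a call, and the 5 genes most like NQO1 and NFE2L2. A few called genes outside this rule are named as such. Alternatives covered the pseudocount, the filter, scaling, limma-voom on reads, the trend, 1 fit of all samples, the replicate block, GC content (lowess, span 0.3) and leaving out each sample.

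Whether counting used strand is not given in the sources used here. In GENCODE 29, AGPS overlaps NFE2L2, SIRT7 overlaps MAFG, and EID3 and RPL18AP3 lie within TXNRD1, so reads there may not be told apart. Of 71462 NONCODE genes none were tested. CBR3 was not analysed here.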

Additional observations from a re-analysis of the deposited data

Results flagged for a closer look

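MAFG and TXNRD1 drew attention because every resistant sample lay above every parental one in Huh7 and below every parental one in HepG2. The difference between the lines, HepG2 change minus Huh7 change, was -2.03 for MAFG and -1.78 for TXNRD1 on the log2 scale. Both passed the interaction test of limma across all genes, as did 5 of the 9 members and 6017 of all 10688 genes tested. Both are members chosen with results known, so these calls are a description. Among the other pathway genes, 44 of 57 had changes that differed between the lines by the interaction test of limma at an adjusted p under 0.05. Of these, 38 were lower in HepG2 and 6 higher, where 24.1% of all genes tested were lower and 32.2% higher. The lists of these genes were also chosen with results known.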

How the results depend on the processing

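Counts of other pathway genes were recomputed under each alternative. By adjusted p alone, 39 rather than 18 were higher and 9 rather than 5 lower in Huh7, 5 rather than 1 higher and 17 rather than 8 lower in HepG2, and 47 rather than 31 differed between the parental lines. The 5 lower in Huh7 became 2 under upper-quartile scaling, 3 under median-ratio scaling and 2 with the GC trend removed, and the cause was not tested. The 1 higher gene in HepG2, NFE2, became 0 when at least 1 FPKM was asked in all 6 samples, which leaves it untested by construction. Leaving out 1 sample at a time gave 18 to 24 higher and 3 to 5 lower in Huh7, the 3 without Huh7 parental replicate 2. In HepG2 it gave 0 to 1 higher, with 0 without any of the resistant replicates 1, 2 or 3, where NFE2 no longer passes the filter, and 8 to 9 lower. The interaction gave 38 to 46 and the parental contrast 29 to 32.

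Over all genes, the split of calls depended on scaling. In Huh7, 1079 higher and 1759 lower became 1608 and 1272 under upper-quartile scaling, 1293 and 1513 under median-ratio scaling and 703 and 787 with the GC trend removed. In HepG2, 387 and 350 became 260 and 464, 284 and 448, and 279 and 444. Upper-quartile scaling moved the median change of all genes from -0.04 to 0.12 in Huh7 and from 0.12 to 0.00 in HepG2. Counts also moved with the pseudocount of 0.1 (1581 and 2606 in Huh7, 612 and 489 in HepG2) and limma-voom (1630 and 2665, 646 and 511). Of 288 recomputed member changes, 274 moved by less than the replicate spread and 14 by more.

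Replicate numbers are shared between groups, and with 3 samples in a group it could not be settled whether they pair the samples. Correlations of same-numbered deviations were 0.08, 0.06 and -0.23 in Huh7 and 0.25, 0.44 and -0.01 in HepG2. Resistant replicate 1 of Huh7 and resistant replicates 1 and 2 of HepG2 correlated best with their own number, and the other resistant replicates did not. Over all genes in HepG2, 3418 passed adjusted p alone with the replicate block and 2357 without it. With the replicate block, 18 pathway genes were higher and 5 lower in Huh7 and 1 higher and 8 lower in HepG2, with 45 by the interaction and 29 between parental lines. Depth limits the low genes, such as BACH2 and NFE2.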
